A study of Mus musculus with 16 samples.

Results

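Gpnmb, Spp1, Lgals3, Itgax, Clec7a, Lpl, Cst7, Cd63 and Apoe are transcripts that phagocytes of the brain are known to carry at high levels while they take up myelin, lipid and dead cells. The levels of these 9 genes were followed in the mouse neocortex opposite to a removed cortex. The genes were chosen by measured values, since Gpnmb, Spp1 and Lgals3 had stood out on these same arrays after adult surgery, and for that reason their values are given as a description with no test. A probe carrying an accession of the gene was found for 8 of the 9 genes, among 20134 genes measured, and Clec7a was not analysed here. Apoe saturated on all 16 arrays, which left 7 genes whose pools could be compared.

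The animals were male C57BL/6J mice, and the tissue was the right neocortex rostral from bregma. The labels name 8 groups, each of them 1 pool of RNA. The methods give 4 animals for each of the control, neonatal surgery and adult surgery groups, and no number for each pool. The controls had no hemidecortication and were sampled at 7, 14 and 35 days (control P7, P14 and P35) and at 10 weeks (control 10W). NBI animals lost the left cortex by suction at P7 and were sampled 1 week later at 14 days (NBI 1W) or 4 weeks later at 35 days (NBI 4W). ABI animals lost the left cortex by suction as adults, over a larger area than the pups by the methods, and were sampled 1 week later, at 11 weeks by the label (ABI 1W), or 4 weeks later, at 15 weeks by the label (ABI 4W). The study writes NBH and ABH for these animals. Each pool was hybridized to 1 array with Cy3 and to 1 array with Cy5, so that the SD of a value over the 2 dyes is a technical error, and no value has a biological replicate. Row 1 of both slides holds the controls and row 2 the operated animals, and slide position and surgery cannot be told apart.

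Phagocytes are the cells that clear debris in the brain, namely resident microglia, macrophages at the borders of the brain and monocytes that enter from the blood. When they meet myelin or dying cells they are known to shift through the receptor Trem2 toward a state with more lysosomes, more lipid carriers and fewer of the transcripts of resting microglia. Clec7a and Itgax are surface receptors of that state, one for fungal sugars and one an integrin chain (CD11c). Spp1 (osteopontin), Lgals3 (galectin 3), Apoe and Lpl are secreted, the first as a ligand of integrins and CD44, the second as a lectin that also binds damaged lysosomes, and the others for the transport of lipid and the hydrolysis of its triglycerides. Cst7 (cystatin F) inhibits lysosomal proteases, Gpnmb is a glycoprotein of lysosomes and the cell surface, and Cd63 is a tetraspanin of late endosomes.

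The bases before the start sites of Gpnmb, Spp1 and Lgals3 are shown because these 3 genes had the largest differences on the arrays and differed together. The sequences are RefSeq's for GRCm38.p6, 250 bases long and written 5' to 3' on the gene's strand, and capitals mark a match to one of 5 motifs searched on both strands. The windows are chr6:49036268-49036517 (+) for Gpnmb, chr5:104434861-104435110 (+) for the first start site of Spp1 and chr14:47373610-47373859 (+) for Lgals3.
Gpnmb: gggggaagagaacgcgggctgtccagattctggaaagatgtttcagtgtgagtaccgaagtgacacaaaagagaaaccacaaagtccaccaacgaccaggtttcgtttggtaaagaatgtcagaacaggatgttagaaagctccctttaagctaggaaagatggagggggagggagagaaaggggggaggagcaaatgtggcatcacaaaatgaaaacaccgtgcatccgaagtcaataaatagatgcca
Spp1: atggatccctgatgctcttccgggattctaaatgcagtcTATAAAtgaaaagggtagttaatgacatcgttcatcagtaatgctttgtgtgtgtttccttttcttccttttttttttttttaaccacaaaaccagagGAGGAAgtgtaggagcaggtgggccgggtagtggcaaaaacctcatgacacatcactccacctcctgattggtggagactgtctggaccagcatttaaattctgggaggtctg
Lgals3: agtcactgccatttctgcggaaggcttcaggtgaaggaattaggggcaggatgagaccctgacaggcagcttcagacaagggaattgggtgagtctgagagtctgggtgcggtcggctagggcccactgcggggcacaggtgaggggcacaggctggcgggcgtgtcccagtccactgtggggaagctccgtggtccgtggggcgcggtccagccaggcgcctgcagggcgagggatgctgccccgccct

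The motif bound by PU.1, the factor that sets the macrophage lineage, was searched by its core GAGGAA, and the motif of AP-1, a factor of activated cells, as TGANTCA. The M-box of the Mitf family was searched as TCATGTG, the E-box as CACGTG and the TATA box as TATAAA, and none of the 5 motifs contains another. The Spp1 window held the letters TATAAA 211 bases and GAGGAA 113 bases before the start. The windows of Gpnmb and Lgals3 held no match. Windows were listed for 8 of the 9 genes, 12 windows in all, and not for Lpl. The PU.1 core was found in 6 of the 12 windows (of Spp1, Clec7a, Cd63 and Apoe), and the pair of Clec7a windows overlaps almost fully. Over all 32841 windows of this length, 23.3% held it. The AP-1 motif was found in 1 of the 12 windows, that of Itgax, 56 bases before its start, against 6.75% of all windows. The letters TATAAA were found in 2, of Spp1 and Apoe, against 12.4%. The M-box and the E-box, which 3.25% and 6.02% of all windows held, were found in 0 of the 12. The Gpnmb and Lgals3 windows also differed in base composition, with 47.2% and 66.0% G or C and 43.6% in the printed Spp1 window. A match is only a run of letters, and the arrays do not show what binds there.

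Per array, the median signal of the spots was between 192.5 and 253 over a median background of 59 to 72, and 60.2% to 72.2% of the spots were well above background. A level is given as log2 of the background-corrected signal minus the 75th percentile of its array, so a level of 0 is that of a gene at the 75th percentile of the spots. A call needed both dyes, with a ratio of surgery to control of 1.5 or more for higher and of 0.75 or less for lower. Where a pool was not well above background on both arrays, it was held at the detection floor of each array, or at its own signal where that was higher. The fold is then a lower bound written as "at least". The agreement of the dyes over all genes compared differed, with r between the Cy3 and the Cy5 differences of 0.24 for NBI 1W, 0.58 for NBI 4W, 0.86 for ABI 1W and 0.32 for ABI 4W. All 10 markers of cortical neurons were above background in every pool. In whole tissue, more cells of a type and more RNA per cell cannot be told apart.

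The first question was how the genes differed from the control on the opposite side 1 week after hemidecortication in the adult. In ABI 1W all 7 genes compared were called higher than in control 10W and none was called lower, with a median difference of 4.09 on the log2 scale and a range from 1.19 to 6.14. Over all 16320 genes compared, the median difference was -0.08, and 4.44% were called higher and 6.37% lower (725 and 1039 genes, or 1266 and 313 with the arrays scaled to their median). The 7 genes were chosen partly on this contrast, so nothing is read from their count against that background. Gpnmb, Spp1 and Lgals3 were the 3 genes with the largest difference among the 16320.

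Gpnmb had a level of -2.91 with Cy3 and -2.80 with Cy5 in control 10W, and of 3.23 and 3.35 in ABI 1W. This is a difference of 6.14 with Cy3 and 6.15 with Cy5, or 70.7-fold, so that a transcript close to background in the control became one well over the 75th percentile. Spp1 went from -2.25 ± 0.03 (SD, n = 2 arrays) to 3.72 ± 0.10, a difference of 5.98 ± 0.06 or 63.0-fold. Lgals3 went from -2.47 ± 0.08 to 3.07 ± 0.06, a difference of 5.55 ± 0.14 or 46.8-fold. For all 3 genes the gap between the pools was many times the difference between the dyes, which however says nothing of the spread between animals.

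Cst7 was not above background on either array of control 10W and had a level of 0.32 ± 0.11 in ABI 1W, at least 17.0-fold higher. Itgax was likewise not above background in control 10W and had a level of -1.08 ± 0.11 in ABI 1W, at least 6.56-fold higher. Both folds are thus set against a control pool not above background, and the true folds may be larger. Lpl and Cd63 were already well above background in the control and differed less. Lpl went from 0.14 ± 0.17 to 1.45 ± 0.08, which is 2.48-fold, and its other probe gave 2.37-fold and was called as well. Cd63 went from 3.77 ± 0.08 to 4.96 ± 0.07, or 2.29-fold. The set thus held 3 genes with 46.8-fold or more, 2 genes with a bound only, which for Cst7 reached 5.53 on the log2 scale with the processed signal, and 2 abundant genes that differed by 2.48-fold or less.

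Apoe, the main carrier of cholesterol in the brain, could not be followed on these arrays. Its signal was saturated in all 8 pools, with levels from 5.49 ± 0.27 in control P7 to 5.86 ± 0.16 in NBI 1W, and on all 16 arrays it also gave a signal above background in the channel without labelled RNA. These levels are limits of the scanner and no fold is given for them.

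**Figure D1:**
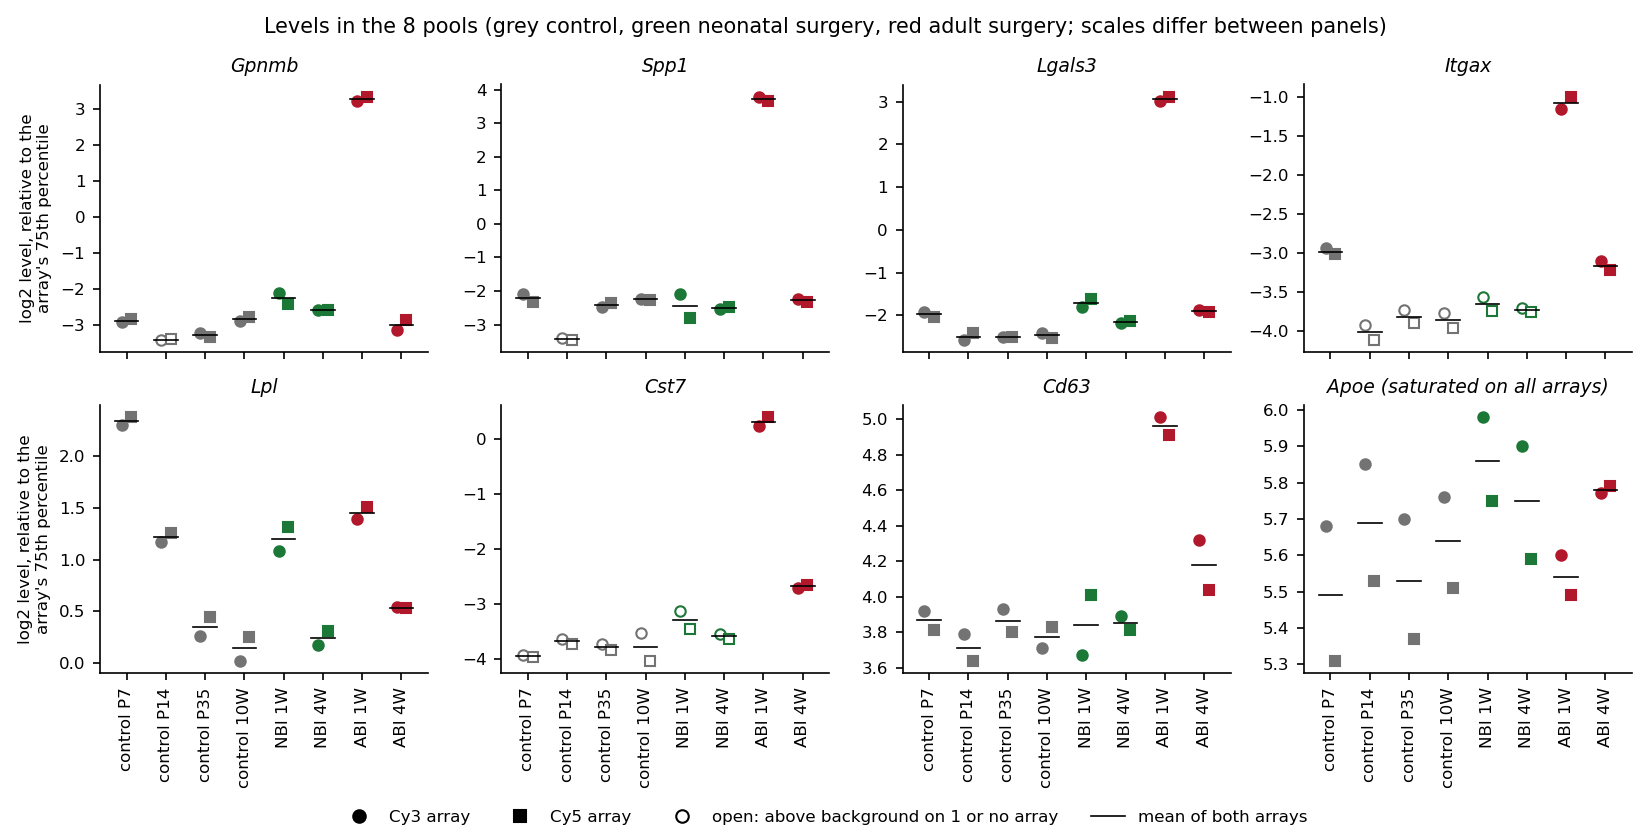
Level of 8 lipid-associated phagocyte genes in the 8 pools, as log2 relative to the 75th percentile of the array, with a circle for the Cy3 array, a square for the Cy5 array and a line for their mean, on a scale of its own in each panel. Gpnmb, Spp1, Lgals3, Itgax, Cst7 and Cd63 are highest in ABI 1W, Lpl is highest in control P7 at 2.34, and Apoe was saturated on every array.

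The second question was how the same genes stood in the pool taken 4 weeks after adult surgery. In ABI 4W only Cst7 was called higher than control 10W, 1 of 7 genes compared, with a median difference of 0.41 and a range from -0.16 to 1.09. Over all genes compared, 0.43% were called higher and 0.196% lower (70 and 32 genes, or 57 and 48 with median scaling). The same control pool served both ABI comparisons, so the ABI pools are set side by side here. Gpnmb had a level of -3.02 ± 0.19 in ABI 4W, which differed by -6.30 from ABI 1W and by -0.16 from control 10W. Spp1 had a level of -2.28 ± 0.07, which differed by -6.00 from ABI 1W and by -0.02 from control 10W. Both transcripts were thus close to their level in the adult control in the pool taken 4 weeks after surgery.

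Cst7, the protease inhibitor, was above background on both arrays of ABI 4W with a level of -2.67 ± 0.04, at least 2.14-fold above control 10W. This call rests on a control pool not above background, with signals of -3.51 with Cy3 and -4.02 with Cy5. The call was lost when all 4 arrays had to be above background. Lgals3 had a level of -1.90 ± 0.03, 1.49-fold above control 10W (0.54 with Cy3 and 0.61 with Cy5), which missed the limit with Cy3. Itgax had a level of -3.16 ± 0.08 and was at least 1.55-fold higher by the mean of both dyes, but was not called. With Cy5 alone, Lgals3, Itgax and Cst7 were called higher, and with Cy3 alone Cst7 and Cd63. Cd63 and Lpl differed by 0.41 ± 0.28 and 0.40 ± 0.17, and the other Lpl probe by 0.09. Which genes besides Cst7 passed the limit at 4 weeks thus changed with the dye. Cst7 and Itgax are lower bounds, and on the processed signal they differed by 1.80 and 1.31 on the log2 scale.

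The third question was whether the pools of animals operated on at P7 showed the same picture. In NBI 1W, 5 of the 8 genes could be compared with control P14, of which Gpnmb, Spp1 and Lgals3 were called higher and none lower, with a median difference of 0.78. Over all 15469 genes compared the median was 0.06, and 0.472% were called higher and 0.427% lower (73 and 66 genes, or 58 and 133 with median scaling). Gpnmb had a level of -2.27 ± 0.22 in NBI 1W and -3.42 ± 0.02 in control P14, where it was above background on 1 of 2 arrays, and it was at least 2.21-fold higher. Spp1 had a level of -2.45 ± 0.49, at least 1.97-fold above control P14, with a difference of 1.29 with Cy3 and 0.67 with Cy5. Lgals3 was above background on all 4 arrays and had levels of -1.72 ± 0.13 and -2.50 ± 0.12, a difference of 0.78 ± 0.01 or 1.72-fold. The calls of Gpnmb and Spp1 rest on a control near the floor, and with all 4 arrays required above background only Lgals3 was called.

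Spp1 in NBI 1W did not stand apart from the other control pools. Its levels were -2.10 with Cy3 and -2.80 with Cy5, around those of control P7 (-2.21 ± 0.16), control 10W (-2.25 ± 0.03) and control P35 (-2.42 ± 0.10), and control P14 was the lowest of all 8 pools at -3.43 ± 0.05. Gpnmb in NBI 1W lay above all 4 control pools, whose levels were between -3.42 and -2.85. Lgals3 in NBI 1W also lay above all 4, the closest of which was control P7 at -1.97 ± 0.08. For Gpnmb and Lgals3 the pool is hence the second highest of the 8, although far under ABI 1W at 3.29 and 3.07. Lpl and Cd63 differed from control P14 by -0.02 and 0.13 ± 0.35 and were not called. Itgax and Cst7 were not above background on the arrays of NBI 1W or control P14 and were not compared. A difference between the NBI and ABI comparisons was not tested, as each rests on 1 pool against 1 pool.

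In NBI 4W only Gpnmb was called higher than control P35, 1 of 5 genes compared, with a median difference of -0.02. Over all 15873 genes compared, 0.214% were called higher and 0.75% lower (34 and 119 genes, or 20 and 170 with median scaling). Gpnmb had a level of -2.60 ± 0.01 against -3.29 ± 0.08, a difference of 0.63 with Cy3 and 0.76 with Cy5, or 1.62-fold. The call was lost when the arrays were scaled to their median, with quantile normalization, and when control 10W, at -2.85, took the place of control P35. Lgals3 was 0.35 higher on the log2 scale and was not called, and Spp1, Lpl and Cd63 differed by -0.08, -0.11 and -0.02. Itgax and Cst7 were not above background in NBI 4W.

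**Figure D2:**
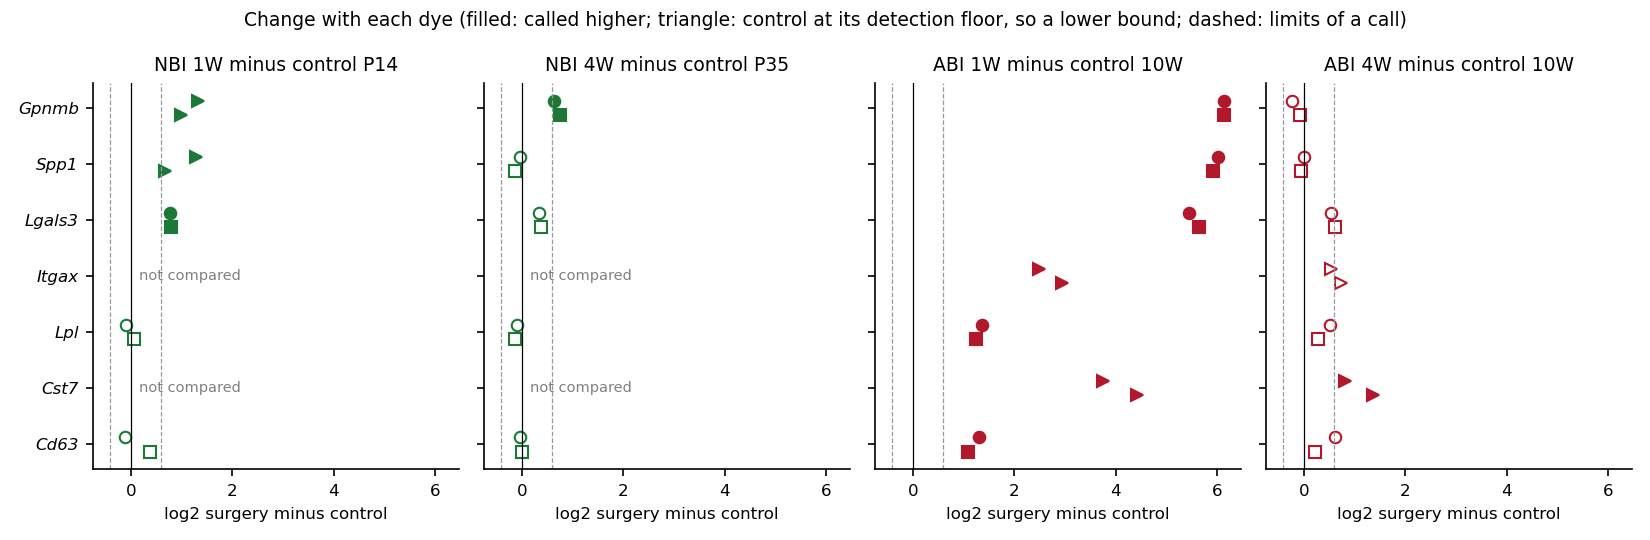
Surgery minus control on the log2 scale for 7 genes in the 4 comparisons, with a marker for each dye, filled where the gene was called higher. A triangle stands where the control pool was above background on 1 array or none, so that the value is a lower bound. The dashed lines are the limits of a call at 1.5-fold and 0.75-fold. All 7 genes are filled in ABI 1W, 3 in NBI 1W, and 1 each in NBI 4W (Gpnmb) and ABI 4W (Cst7).

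The control pools show how the genes change with age without surgery. Lpl had the widest course, with levels of 2.34 ± 0.05 at P7, 1.22 ± 0.07 at P14, 0.35 ± 0.13 at P35 and 0.14 ± 0.17 at 10 weeks, and fell by 2.20 on the log2 scale from the first to the last. The other Lpl probe ran the same way, from 0.36 ± 0.01 to -1.85 ± 0.14. The last step, from P35 to 10 weeks, was the smallest at -0.21. With its value of 1.45, the Lpl level of ABI 1W lay between those of control P7 and control P14. Lipoprotein lipase was thus the only gene of the 7 for which a control pool was the highest of the 8 pools.

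Itgax, the integrin chain, was above background in control P7 (-2.98 ± 0.05) and on 1 array or none in each later control pool. Spp1 was lowest at P14 and between -2.42 and -2.21 in the other controls, and Lgals3 went from -1.97 ± 0.08 at P7 to -2.50 ± 0.12 at P14, -2.51 at P35 and -2.47 at 10 weeks. Gpnmb lay between -3.42 and -2.85 in the controls. Cd63 kept between 3.71 and 3.87. Cst7 was above background on 1 array of control P35 and on no other control array.

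Over the means of the 8 pools, Gpnmb correlated with Lgals3 at r = 0.993 and with Spp1 at 0.985, and Spp1 with Lgals3 at 0.984, whereas Lpl correlated with these 3 at 0.257 to 0.335. These values rest largely on ABI 1W, since over the other 7 pools the same pairs had r = 0.715, 0.472 and 0.419. Cst7 and Cd63 had r = 0.98 over the 8 pools, and no value is given without ABI 1W because Cst7 was then above background on both arrays of 1 pool only. The pools share the arrays' scaling, and the correlations are given as a description.

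Among 3873 genes whose pool means ranged over at least 1 log2, the 5 with a pattern most like that of Gpnmb were 5730416F02Rik, Pcolce (an enhancer of procollagen processing), Myo1g (a myosin of blood cells), Lilrb4a (an inhibitory receptor of myeloid cells) and Glipr1, with r from 0.993 to 0.995 over the 8 pools. For Spp1 they were Tgfbi, Tcirg1 (a subunit of the proton pump that osteoclasts use), Lyz1, Myo1g and Lyz2, with r from 0.986 to 0.989. For Lgals3 they were Myo1g, Acp5 (an acid phosphatase of osteoclasts and macrophages), Cyba (a subunit of the phagocyte oxidase), Lilrb4a and Fabp4, with r from 0.994 to 0.998. Myo1g was near all 3 genes although its own difference in ABI 1W was 3.42-fold, while Lilrb4a was 21.4-fold, Lyz1 43.7-fold and Acp5 14.4-fold higher. These values too rest largely on ABI 1W. Over the other 7 pools r was 0.71 to 0.898 for the 5 genes of Gpnmb, 0.313 to 0.7 for those of Spp1 and 0.834 to 0.933 for those of Lgals3. Lyz1 and Lyz2 are near-identical copies whose probes may share transcripts.

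Other genes of the same phagocyte state were counted from a list of 28 outside the 9. In ABI 1W, 17 of 25 compared were called higher and none lower, with a median difference of 1.13 against -0.08 over all genes. Of all genes compared in ABI 1W, 4.44% were called higher and 6.37% lower, which stands beside the lists below too. Ctsb, among those not called, lay at 5.54 in ABI 1W, the level of the saturated Apoe. Lyz2, a lysozyme of macrophages, was 37.7-fold higher, the chemokine Ccl3 at least 7.85-fold, the surface antigen Cd52 6.43-fold, the Trem2 adaptor Tyrobp 4.87-fold and the actin capping gene Capg 4.32-fold. Trem2 itself was 4.12-fold higher (2.04 ± 0.13 on the log2 scale). Most of the genes compared from this list were thus called in the same direction. In NBI 1W and NBI 4W none of the list was called, and in ABI 4W Ccl3 alone was called, at least 2.04-fold.

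Of 30 genes of lipid handling, 11 of 29 compared were called higher in ABI 1W and none lower, with a median of 0.29. Plin2, which coats lipid droplets, was 7.78-fold higher, the apolipoprotein Apoc1 5.02-fold, the scavenger receptor Cd36 at least 4.81-fold, the fatty acid binding protein Fabp4 at least 4.42-fold and the cholesterol exporter Abca1 3.64-fold. None of the 30 was called in the other 3 comparisons. The genes called included droplet, uptake and export genes.

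The next list held 24 receptors, partners and targets of the 9 proteins. Of 23 compared in ABI 1W, 8 were called higher and 1 lower, with a median of 0.46. Over all genes, 4.44% were called higher and 6.37% lower. Timp1, an inhibitor of matrix proteases, was 6.36-fold higher, Lgals3bp, a glycoprotein that binds galectin 3, 5.25-fold, the receptor chain Fcer1g 4.00-fold, Ctsc (cathepsin C, which cystatin F inhibits) 3.31-fold and the kinase Syk 2.35-fold. Itgb2, the integrin chain that pairs with Itgax, was 2.31-fold higher, and Itgal, another partner of Itgb2, differed by -0.52 and was called lower. Cd44, a receptor of osteopontin, was called in NBI 4W, where it was 1.53-fold higher, and was 1.52-fold higher in ABI 1W, where it missed the limit with Cy3.

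A list of 20 transcription factors known for macrophage, lysosome or lipid genes was counted as well. Of 19 compared in ABI 1W, 4 were called higher and 1 lower, with a median of 0.18, against 4.44% and 6.37% over all genes. Atf3 was 3.22-fold higher, Irf8, a factor of microglia and monocytes, 3.06-fold and Cebpa 1.91-fold. Fos, a subunit of AP-1, was called lower in ABI 1W (-0.55 ± 0.09) and in NBI 1W (-0.62 ± 0.16).

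**Figure D3:**
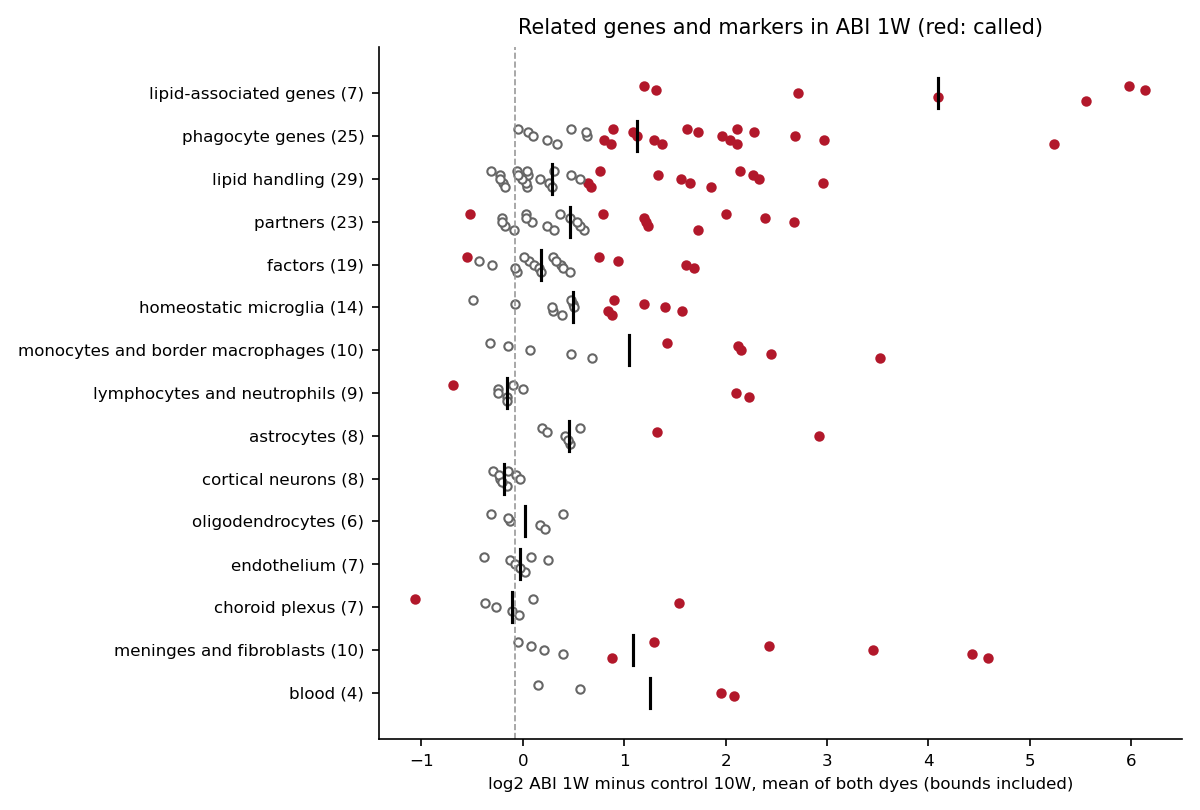
ABI 1W minus control 10W on the log2 scale, mean of both dyes, for the 7 lipid-associated genes compared and for 14 lists of related genes and cell type markers, with the number of genes compared in parentheses. Red points are genes called higher or lower, open points genes not called, the black bars the median of each list and the dashed line the median of all genes at -0.08; the lipid-associated genes have a median of 4.09 and the neuron, oligodendrocyte and endothelium lists hold no called gene.

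Markers of other cells were counted in the same way. In ABI 1W, 6 of 14 markers of homeostatic microglia were called higher and none lower, with a median of 0.50. Fcrls was 2.96-fold and Aif1 2.63-fold higher. P2ry12, Tmem119 and Sall1 differed by 0.49, 0.39 and 0.30 and were not called. Olfml3 differed by -0.49 and Siglech by -0.08, and these were not called either. Of 10 markers of monocytes and border macrophages compared, 5 were called higher and none lower, with a median of 1.05, and Ms4a7 was 11.4-fold, F13a1 5.47-fold, Stab1 4.44-fold and Pf4 4.33-fold higher. The monocyte markers Ccr2 and Plac8 differed by 0.07 ± 1.05 and -0.32 ± 0.06, and Lyve1 of border macrophages by -0.15 ± 0.14, and these were not called. None of the homeostatic microglia markers differed by more than 2.96-fold. Among markers of lymphocytes and neutrophils, S100a8 and S100a9 were 4.68-fold and 4.28-fold higher and Cd2 was called lower, 3 of 9 compared, while the neutrophil markers Camp and Mpo differed by -0.10 and 0.00.

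Markers of tissues beyond the phagocytes also differed in ABI 1W. Of 10 markers of meninges and fibroblasts 6 were called higher, with a median of 1.08, and the collagen genes Col1a1, Col3a1 and Col1a2 were 24.2-fold, 21.6-fold and 10.9-fold higher. The summed level of these 10 markers was 5.98 and 5.97 in ABI 1W and between 3.29 and 4.39 on the other arrays. Gfap, the filament of reactive astrocytes, was 7.59-fold higher, with 2 of 8 astrocyte markers called. The globin gene Hbb-bs and Alas2 of red blood cells were 3.87-fold and 4.24-fold higher, 2 of 4 blood markers compared. None of 8 neuron, 6 oligodendrocyte and 7 endothelium markers compared was called. The other 4 meningeal markers, Slc6a13, Slc22a6, Igf2 and Aldh1a2, differed by 0.08, -0.05, 0.21 and 0.40 and were not called. The part of the collagen, astrocyte and blood RNA in the levels of the 7 genes was not tested.

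Choroid plexus markers were high in the other 3 surgery pools. The summed level of the 10 markers was 5.19 with both dyes in NBI 1W, 4.14 and 4.08 in NBI 4W and 4.86 and 4.78 in ABI 4W, against 0.79 to 1.57 in the control pools and 0.85 and 0.87 in ABI 1W. Most of that sum is Ttr, the thyroid hormone carrier of the plexus, whose own level was 5.05 in NBI 1W, 3.94 in NBI 4W and 4.65 in ABI 4W. Called higher were 7 of 9 markers compared in NBI 1W, 4 of 9 in NBI 4W and 8 of 9 in ABI 4W, with Ttr 92.4-fold, 29.9-fold and 53.5-fold higher, while Clic6 and Otx2 differed by -0.26 and -0.09 in NBI 4W. In ABI 1W, the pool with the highest Gpnmb, Spp1 and Lgals3, 1 of 7 markers compared was called higher (Aqp1) and 1 lower (Slc4a5), and the sum lay within the range of the controls. Gpnmb, Spp1 and Lgals3 in NBI 1W, Gpnmb in NBI 4W and Cst7 in ABI 4W differed in pools with that plexus RNA. The part of the plexus RNA in these differences was not tested. Also called in these pools were S100a9 in NBI 1W (2.03-fold higher), the blood genes Hbb-bs and Alas2 in NBI 4W (2.03-fold and 1.83-fold higher) and Gfap in ABI 4W (1.92-fold higher). In the 3 other comparisons, the lists of homeostatic microglia and of monocytes and border macrophages held no called gene.

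**Figure D4:**
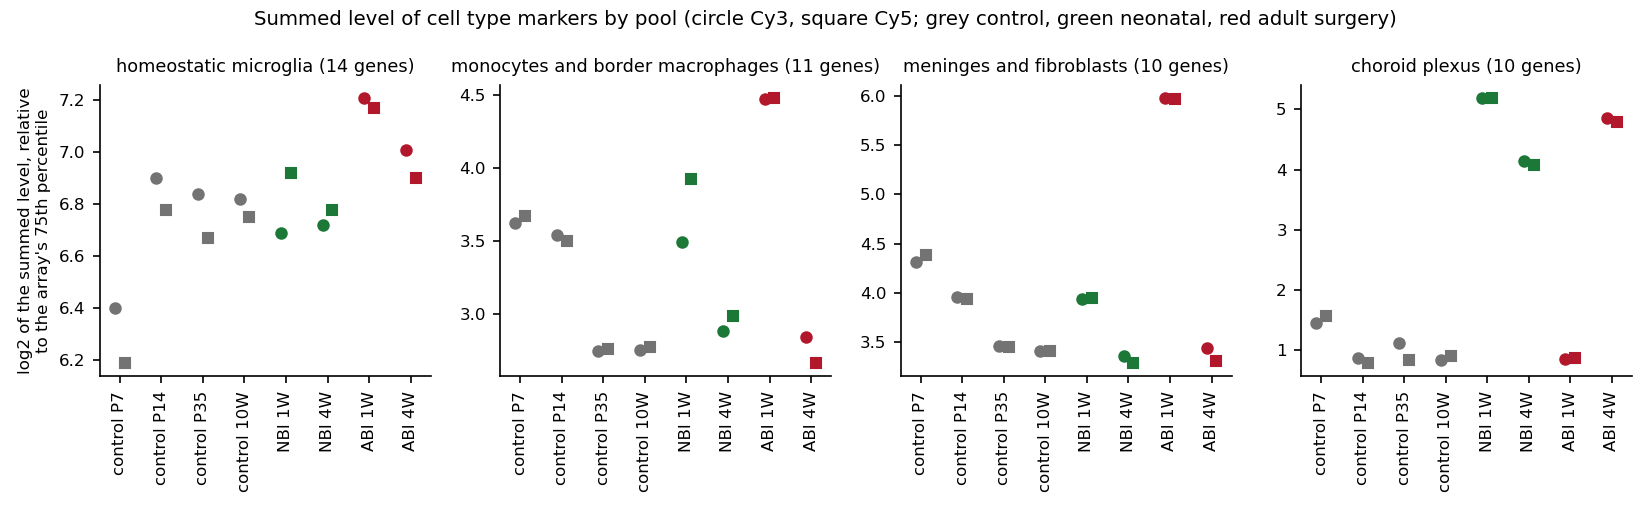
Summed level of 4 lists of cell type markers on each array, as log2 relative to the 75th percentile of the array, by pool and dye, on a scale of its own in each panel. Microglia, monocyte and border macrophage, and meningeal markers are highest in ABI 1W, and choroid plexus markers are high in NBI 1W, NBI 4W and ABI 4W and lie between 0.79 and 1.57 in the other 5 pools. Abundant genes weigh most in a sum, such as Siglech among microglia markers (5.52 in ABI 1W) and Fn1 among monocyte and border macrophage markers (3.36 in ABI 1W).

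The values rest on 1 pool a group. On the software's processed signal as deposited and not scaled, the ABI 1W difference was 7.05 for Gpnmb, 4.51 for Itgax and 5.64 for Cst7 on the log2 scale, while all 7 genes were called higher under every alternative in which they were compared.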

How the data were processed

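RNA of 8 pools of neocortex was measured on 16 Agilent mouse 8 × 60 K arrays, and each pool has a Cy3 and a Cy5 array. The authors quantified the spots with Agilent Feature Extraction 11.0.1.1, whose headers name mm9 (NCBI37), and deposited intensities in arbitrary units, namely the median signal, the median local background and a processed signal, together with a value table that matches the processed signal to within 0.497%. Here the median signal of the labelled channel was corrected with normexp (offset 50, limma 3.58.1 in R 4.3.3), taken as log2, and scaled to the 75th percentile of each array in Python 3.11.15 (numpy 2.4.6, pandas 2.3.3). Outlier spots (140 to 237 per array) were dropped and repeated spots averaged. Of several probes of a gene the brightest on average was used, named through the RefSeq table of GRCm38.p6, which gave 26582 of 55681 probes a gene. A gene entered a comparison if both arrays of 1 or both pools were well above background. A probe saturated on all 4 arrays of a comparison was given no fold. Probes saturated on fewer arrays were kept in the lists, and their differences may be too small.

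The signal over background sets the precision, and the 2 arrays of a pool give technical error only, so no test was made. Groups were taken from the sample labels. The 9 genes, the 14 lists of related genes and markers, and the limits were chosen with earlier results of these data known. Named are the 9 genes, up to 5 called genes a list and comparison, and the 5 genes most like Gpnmb, Spp1 and Lgals3, while Trem2, Itgb2, Itgal and the markers given as not called were named after their values were seen. The calls were repeated with 13 alternatives of signal, scaling, filter, limits, probes, control pool and dye.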

Additional observations from a re-analysis of the deposited data

Results flagged for a closer look

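Gpnmb differed by 0.69 in NBI 4W and by -0.16 in ABI 4W from the respective controls, with both dyes on opposite sides of 0, a gap of 0.86 on the log2 scale. With the control pools exchanged (control 10W for NBI 4W and control P35 for ABI 4W) the values were 0.26 and 0.28, so the direction in ABI 4W turned with the control. Lpl ran in opposite directions in the same comparisons, -0.11 in NBI 4W and 0.40 in ABI 4W, a gap of -0.51. With the control pools exchanged they were 0.10 and 0.18, in the same direction, and the other Lpl probe differed in ABI 4W by -0.11 with Cy3 and 0.29 with Cy5. Spp1 differed by 0.98 in NBI 1W and by -0.08 in NBI 4W, a gap of 1.06, where the first value is a lower bound against control P14. Gpnmb differed by 6.14 in ABI 1W and by -0.16 in ABI 4W, a gap of 6.30, and these comparisons share control 10W. These gaps were picked out because both dyes had one sign in one comparison and the other sign in the other, and none of the differences was tested, as each pool stands alone.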

How the results depend on the processing

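All 7 genes stayed called higher in ABI 1W under every alternative except the requirement that all 4 arrays be above background, under which 5 were compared and called, and no gene was called lower in any comparison under any of the alternatives, of which 13 were run for each comparison but NBI 1W, which had no other control pool. In ABI 4W, where 1 gene was called, 3 were called with the processed signal and with a normexp offset of 0, 2 without a background filter and with control P35 in place of control 10W, and 0 with all 4 arrays above background or 2-fold limits. In NBI 1W, where 3 were called, 1 was called with all 4 arrays above background and 0 with 2-fold limits. In NBI 4W, where 1 was called, 0 were called with median scaling, quantile normalization, 2-fold limits or control 10W as the control. From the arrays of one dye alone, the counts were 2 to 3 in ABI 4W, 3 in NBI 1W, 1 in NBI 4W and 7 in ABI 1W. Of 211 fold changes computed again, 132 moved by less than the SD of the dyes, 79 moved by at least that much, and 0 called values changed sign. Median scaling moved the median of all genes in ABI 1W from -0.08 to 0.18 and the calls from 725 higher and 1039 lower to 1266 and 313. No paired analysis was possible because the replicate numbers of a pool name its dyes and each group is 1 pool. Genes near background, such as Itgax and Cst7 in the controls, give bounds, and Apoe is limited by saturation.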
